A study of Mus musculus with 8 samples.

Results

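The fatty acid oxidation and ketogenesis genes form a set of 37 genes that was followed through a liver expression study of mice. The set holds 17 genes of mitochondrial oxidation and ketone body formation, 10 genes of peroxisomal oxidation, 2 genes whose proteins work in both compartments, and 8 regulators or genes of fatty acid transport and activation. Each gene was read through its main probe, the probe with the highest mean signal, of an Illumina bead array with 25697 probes for 16593 genes. Of the 37 genes, 35 were measured on the array, and Hadha and Acsl1 were not analysed here. Of those 35, 32 passed the filter on low signals and were tested among 9766 genes, while Crot, Fabp1 and Vnn1 did not pass it. The probes of these 3 genes and of Cpt1a had signals within the range of the background, under 39.5, on every array used.

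The livers came from male mice of 10 to 12 weeks with the genotype label Fxr-/- or Fxr+/+. Mice of each label were gavaged with GW4064 at 30 mg/kg or with vehicle, 2 times a day for 7 days, and no other allele or agent is given in the labels. GW4064 is a man-made compound that activates FXR, the receptor for bile acids encoded by the gene Nr1h4. Each array carried RNA pooled from 3 to 4 animals. The arrays used were 2 of Fxr-/- GW4064, 1 of Fxr-/- vehicle, 2 of Fxr+/+ GW4064 and 2 of Fxr+/+ vehicle livers. The column of a further Fxr-/- vehicle array held whole numbers between 14 and 139 that are not signals, so that group had a single usable array, whose spread the fit takes from the replicated groups. The strain, the deleted part of the gene and the cells it was deleted in are not given in the sources used here. Replicates were taken to be separate pools. The p-values rest on the spread between these few pools, which the fit draws towards a spread shared over all genes tested.

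Nr1h4, the targeted gene, was read at 2048 and 1852 in Fxr-/- GW4064, at 3272 in Fxr-/- vehicle, at 3328 and 3483 in Fxr+/+ GW4064 and at 3959 and 4411 in Fxr+/+ vehicle livers. Its signal was thus lower but not lost in the livers labelled Fxr-/-, and where its probe lies relative to the deletion was not known, so this signal does not check the label. Every direction between genotypes below rests on the labels. Of 6 hepatocyte markers on the array, 1 was lower in Fxr-/- livers (Serpina1a) and 1 was within the background range (Tat). Their summed signal was 65779 to 91913 in Fxr-/- and 83564 to 97451 in Fxr+/+ livers.

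Fatty acids are burned in mitochondria and in peroxisomes. Long-chain acyl groups enter mitochondria as carnitine esters, pass through repeated rounds of dehydrogenation, hydration, oxidation and thiolysis, and leave as acetyl-CoA, which the fasting liver turns into the ketone bodies acetoacetate and beta-hydroxybutyrate. Peroxisomes shorten very long chains and hand the products on to mitochondria. In liver many genes of both routes are known targets of the nuclear receptor PPAR-alpha, which binds DNA as a dimer with RXR at spaced repeats of the half-site AGGTCA. FXR, which senses bile acids in the liver, pairs with RXR as well and is best known for holding back bile acid synthesis.

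The sequences just before the transcription starts of the genes with the largest differences, Ehhadh, Pdk4 and Bdh1, and of Acadm, a known PPAR-alpha target, are shown because they are where such half-sites were looked for. They are RefSeq sequences of GRCm38.p6, 250 bases each, read 5′ to 3′ on the gene's strand, with AGGTCA or its reverse complement TGACCT in capitals.
Ehhadh, chr16:21787835-21788084, minus strand: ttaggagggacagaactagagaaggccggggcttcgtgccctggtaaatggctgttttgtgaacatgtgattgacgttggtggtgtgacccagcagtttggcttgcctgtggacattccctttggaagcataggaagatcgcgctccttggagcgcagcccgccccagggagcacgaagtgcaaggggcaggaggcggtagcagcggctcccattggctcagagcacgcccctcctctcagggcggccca
Pdk4, chr6:5496279-5496528, minus strand: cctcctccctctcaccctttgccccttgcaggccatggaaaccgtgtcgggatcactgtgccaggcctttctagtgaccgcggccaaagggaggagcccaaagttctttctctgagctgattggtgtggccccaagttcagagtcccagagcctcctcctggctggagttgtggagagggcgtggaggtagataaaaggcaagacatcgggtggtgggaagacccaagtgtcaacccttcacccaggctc
Bdh1, first start, chr16:31422047-31422296, plus strand: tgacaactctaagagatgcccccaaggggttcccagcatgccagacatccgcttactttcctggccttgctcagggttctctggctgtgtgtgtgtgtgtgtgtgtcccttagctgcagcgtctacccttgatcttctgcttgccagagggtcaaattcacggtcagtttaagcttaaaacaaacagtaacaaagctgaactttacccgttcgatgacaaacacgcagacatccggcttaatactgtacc
Bdh1, second start, chr16:31428503-31428752, plus strand: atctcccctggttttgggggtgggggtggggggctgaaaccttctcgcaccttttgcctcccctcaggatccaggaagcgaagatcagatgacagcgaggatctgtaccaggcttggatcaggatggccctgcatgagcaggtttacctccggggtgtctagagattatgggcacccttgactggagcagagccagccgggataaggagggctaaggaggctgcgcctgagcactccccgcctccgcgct
Acadm, chr3:153944644-153944893, minus strand: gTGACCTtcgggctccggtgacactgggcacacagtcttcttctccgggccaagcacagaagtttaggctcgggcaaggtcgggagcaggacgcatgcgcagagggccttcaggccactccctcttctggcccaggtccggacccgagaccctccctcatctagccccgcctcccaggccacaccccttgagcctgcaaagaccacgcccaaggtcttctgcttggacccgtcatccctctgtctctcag
No half-site stood in the windows of Ehhadh, Pdk4 or Bdh1, and 1 stood in that of Acadm, beginning 249 bases before the start. The search covered 34 starts of 30 member genes and 32851 RefSeq starts in total, called all starts below. Not every gene was searched, and the members outside these 30 were left out. Of the member starts, 8 (23.5%) held AGGTCA on either strand, against 14.0% of all starts. They were Acadm, Acadvl, Cpt1a, Creb3l3, Echs1, Fabp1, Scp2 and Slc27a2. The spaced repeat AGGTCANAGGTCA was in 0 of the member starts and in 0.0335% of all starts, and the looser AGGNCANAGGNCA was in 1 (Fabp1) and in 0.338%. The motifs overlap one another, and a match or its absence in this window says nothing of whether a receptor binds the gene.

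The first question was how the set differed between the genotype labels. In Fxr-/- livers 13 members rose and 1 fell in the comparison averaged over both treatments (limma, Benjamini-Hochberg adjusted p under 0.05 over all genes tested), out of 32 tested. Over all 9766 genes, 9.73% were called higher and 12.6% lower in that comparison. The genes that rose were Pdk4, Ehhadh, Crat, Abcd2, Hadhb, Pex11a, Acadl, Etfdh, Ech1, Cpt2, Acads, Decr1 and Slc25a20, and the gene that fell was Bdh1. The median log2 difference of the 35 members on the array was 0.43, with 28 above 0 and 5 below, against a median of 0.06 over all genes tested. All Fxr-/- arrays lay above all Fxr+/+ arrays for 18 of the 35 members and below them for 2, against 12.8% and 10.9% of all genes on the array. These counts and medians include the 4 members within the background range. Of the 14 calls, 9 were kept whichever of the other 6 arrays was left out, while the single Fxr-/- vehicle array could not be left out. Log2 values here are differences of log2(signal + 16) with negative signals set to 0, which understates the change of dim genes.

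Markers of other cell types were lower in Fxr-/- livers where any moved in the averaged comparison. Of 7 tested neutrophil markers 6 fell (Camp, Elane, Mpo, Ngp, S100a8 and S100a9), with a summed signal of 2491 to 5948 on the Fxr-/- and 2491 to 11212 on the Fxr+/+ arrays. Of 4 tested lymphocyte markers 3 fell (Cd3d, Cd3e and Cd3g), with sums of 199 to 274 on the Fxr-/- and of 445 to 783 on the Fxr+/+ arrays, and Cd79a, Cd8a, Cd4 and Ptprc were within the background range. C1qa and Clec4f of 7 macrophage markers fell (sums of 3222 to 4825 on the Fxr-/- and 4658 to 7560 on the Fxr+/+ arrays), as did Alas2 and Slc4a1 of 3 red cell markers (11905 to 18260, and 16714 to 28436). Cdh5 of 9 endothelial and Col3a1 of 8 stellate markers also fell. These last shares were near that of all genes tested, of which 12.6% were called lower in this comparison. No bile duct or acinar marker passed in the averaged comparison. Under GW4064 the bile duct marker Sox9 rose in Fxr-/- livers (log2 difference 1.04, limma adjusted p = 0.0379; it was the only marker of these lists called higher in any comparison). The 4 adipocyte markers on the array were within the background range. In whole liver, fewer cells of a type and less RNA per cell cannot be told apart. The part of these cells in the members' differences was not tested.

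**Figure D1:**
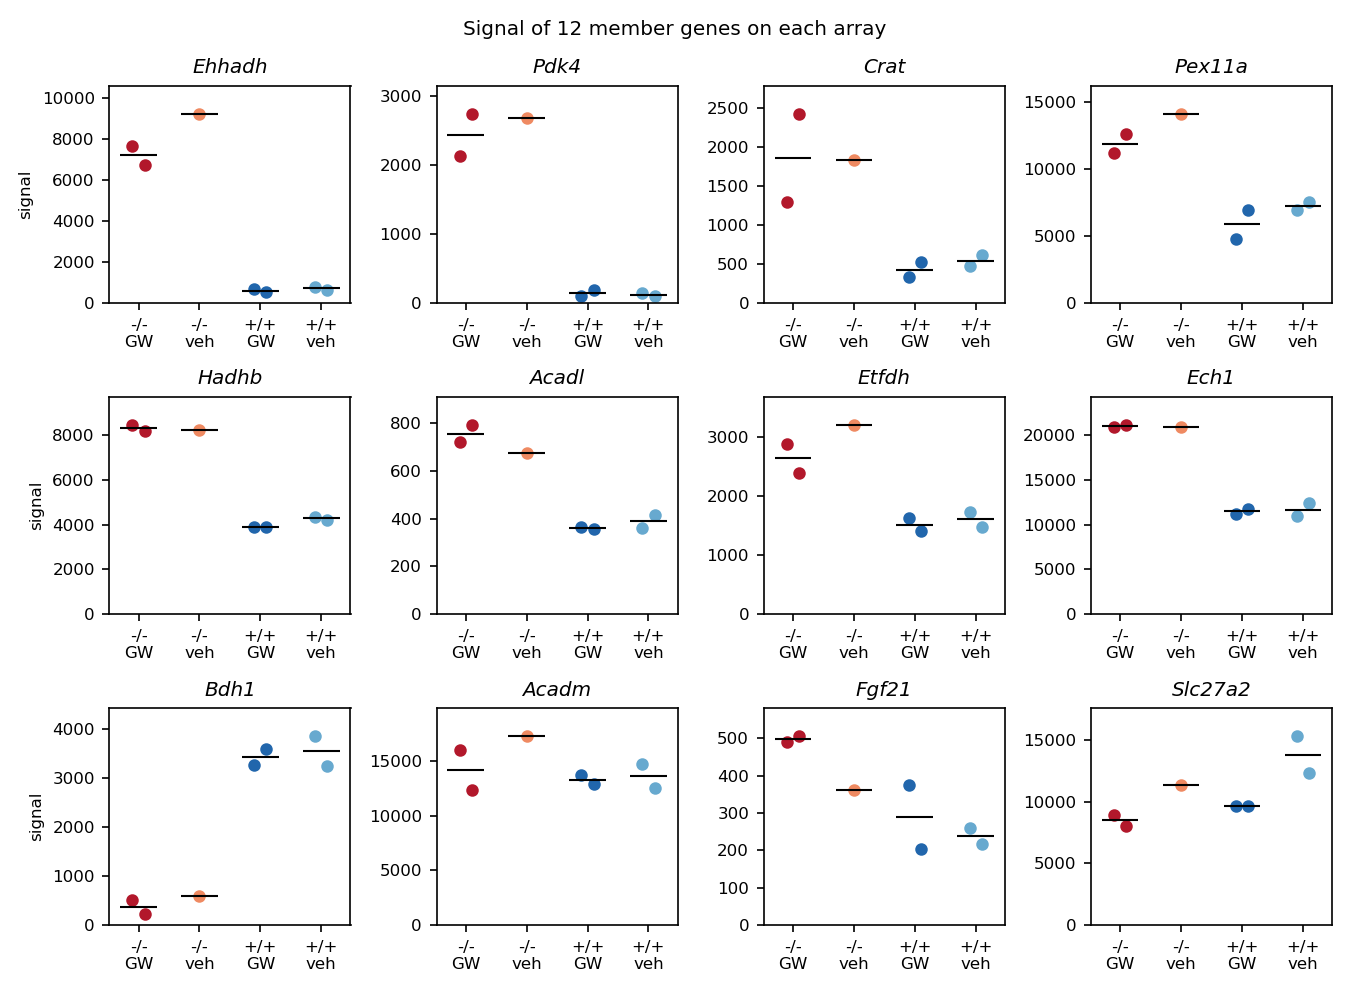
Array signal (linear axes from 0) of 12 member genes in Fxr-/- GW4064, Fxr-/- vehicle, Fxr+/+ GW4064 and Fxr+/+ vehicle livers, 1 point per array and a line at the group mean. Ehhadh lies between 6763 and 9219 on the Fxr-/- arrays and between 521 and 784 on the Fxr+/+ arrays, Bdh1 lies the other way, and Acadm overlaps.

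Among the regulators, Pdk4 had the largest difference of the set. It encodes the kinase that switches off the pyruvate dehydrogenase complex and so spares glucose when fat is burned. Its signals were 2133 and 2730 in Fxr-/- GW4064 and 2679 in Fxr-/- vehicle livers, against 103 and 189 in Fxr+/+ GW4064 and 139 and 104 in Fxr+/+ vehicle livers. Every Fxr-/- array was far above every Fxr+/+ array, with a log2 difference of 4.13 (SE 0.236, limma adjusted p = 5.23e-05), or 17.6-fold. The other 4 tested regulators did not pass. Fgf21, the fasting hormone of the liver, had 489 and 505 in Fxr-/- GW4064 and 360 in Fxr-/- vehicle, against 374 and 205 in Fxr+/+ GW4064 and 259 and 217 in Fxr+/+ vehicle livers. Its groups overlapped through 1 Fxr+/+ GW4064 array (log2 difference 0.69, SE 0.224, limma adjusted p = 0.0634). The log2 differences of Angptl4, an inhibitor of lipoprotein lipase, Creb3l3, a fasting transcription factor, and Slc27a2, a very-long-chain acyl-CoA synthetase and transporter, were 0.41, -0.04 and -0.23.

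Of the members that handle carnitine esters, the 3 that could be read, Crat, Cpt2 and Slc25a20, all rose. Crat, which moves acetyl groups between carnitine and CoA in mitochondria and peroxisomes, had 1287 and 2415 in Fxr-/- GW4064 and 1831 in Fxr-/- vehicle, against 333 and 525 in Fxr+/+ GW4064 and 476 and 612 in Fxr+/+ vehicle livers. The lowest Fxr-/- array was above the highest Fxr+/+ array, and the log2 difference was 1.88 (SE 0.274, limma adjusted p = 0.00305). Cpt2, the inner-membrane carnitine palmitoyltransferase, had 5375, 7657 and 5699 on the Fxr-/- arrays (GW4064, GW4064, vehicle), against 3443 and 3976 in Fxr+/+ GW4064 and 3447 and 4500 in Fxr+/+ vehicle livers. For Slc25a20, the carnitine-acylcarnitine carrier, they were 8563, 9270 and 9543, against 6152 and 6436 in Fxr+/+ GW4064 and 7272 and 6045 in Fxr+/+ vehicle livers. Neither gene's groups overlapped, and their log2 differences were 0.66 and 0.51 (SE 0.195 and 0.152, limma adjusted p = 0.0477 and 0.0489). Both calls were near the threshold. That of Slc25a20 was lost whichever of the 6 arrays was left out (adjusted p 0.0562 to 0.135). That of Cpt2 was lost without Fxr+/+ vehicle replicate 1 (0.11), Fxr+/+ GW4064 replicate 1 (0.133) or 2 (0.0969), or Fxr-/- GW4064 replicate 2 (0.0994). Cpt1a, the outer-membrane enzyme that controls this entry, could not be read. Its signals were 25.9 and 2.6 in Fxr-/- GW4064, 7.9 in Fxr-/- vehicle, 4.0 and 2.1 in Fxr+/+ GW4064 and 26.5 and -0.5 in Fxr+/+ vehicle livers, all within the background range, so no fold is given.

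Of the acyl-CoA dehydrogenases, which open each round of oxidation for a given chain length, Acadl and Acads rose. Acadl, for long chains, had 723 and 792 in Fxr-/- GW4064 and 677 in Fxr-/- vehicle, against 367 and 356 in Fxr+/+ GW4064 and 362 and 416 in Fxr+/+ vehicle livers. Its groups were well apart (log2 difference 0.91, SE 0.148, limma adjusted p = 0.005). Acads, for short chains, had 3232 and 3802 in Fxr-/- GW4064 and 2652 in Fxr-/- vehicle, against 1718 and 2042 in Fxr+/+ GW4064 and 1845 and 2151 in Fxr+/+ vehicle livers. The groups did not overlap (log2 difference 0.65, SE 0.162, limma adjusted p = 0.0256). Its call was lost without Fxr+/+ vehicle replicate 1 (0.0655), Fxr+/+ GW4064 replicate 1 (0.089) or 2 (0.058), or Fxr-/- GW4064 replicate 2 (0.0615). Acadm, for medium chains, had 16053 and 12317 in Fxr-/- GW4064 and 17263 in Fxr-/- vehicle, against 13689 and 12883 in Fxr+/+ GW4064 and 14752 and 12493 in Fxr+/+ vehicle livers. The groups overlapped, and the log2 difference was 0.21 with a 95% interval from -0.18 to 0.61 (limma adjusted p = 0.396). Acadvl, for very long chains, had a log2 difference of 0.59 (adjusted p = 0.0689), and passed with the replicate number as a block (0.0465).

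The later steps of the mitochondrial round were read through 5 tested members, of which Hadhb and Decr1 rose. Hadhb, the thiolase subunit of the trifunctional protein, had 8441 and 8175 in Fxr-/- GW4064 and 8246 in Fxr-/- vehicle, against 3889 on both Fxr+/+ GW4064 arrays and 4360 and 4218 in Fxr+/+ vehicle livers. Replicates nearly coincided, and the log2 difference was 1.02 (SE 0.141, limma adjusted p = 0.00245). Decr1, the reductase needed for unsaturated chains, had 1439 and 1242 in Fxr-/- GW4064 and 1602 in Fxr-/- vehicle, against 928 and 982 in Fxr+/+ GW4064 and 1073 and 976 in Fxr+/+ vehicle livers. Its groups did not overlap (log2 difference 0.56, SE 0.150, limma adjusted p = 0.0343), but the call was kept only without Fxr-/- GW4064 replicate 2, with adjusted p between 0.0576 and 0.106 when any other array was left out. The hydratase Echs1 had a value below 0, a log2 difference of -0.37 (adjusted p = 0.156), and the dehydrogenase Hadh and the thiolase Acaa2 had 0.35 and 0.43 with standard errors of 0.314 and 0.488.

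Electrons from the dehydrogenases pass through the electron-transferring flavoprotein to ubiquinone. Etfdh, the oxidoreductase of the last step, rose, with 2885 and 2404 in Fxr-/- GW4064 and 3205 in Fxr-/- vehicle, against 1630 and 1402 in Fxr+/+ GW4064 and 1739 and 1478 in Fxr+/+ vehicle livers. The lowest Fxr-/- array was above the highest Fxr+/+ array (log2 difference 0.89, SE 0.163, limma adjusted p = 0.00794). The flavoprotein subunits Etfa and Etfb had log2 differences of 0.23 and 0.42 (adjusted p = 0.431 and 0.0968), and Etfb passed with the replicate block (0.0424). Ech1, a dienoyl-CoA isomerase of both compartments, had 20936 and 21104 in Fxr-/- GW4064 and 20936 in Fxr-/- vehicle, against 11199 and 11783 in Fxr+/+ GW4064 and 10926 and 12447 in Fxr+/+ vehicle livers. The groups were far apart relative to their spread (log2 difference 0.86, SE 0.146, limma adjusted p = 0.00588).

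The peroxisomal genes that rose were Ehhadh, Pex11a and Abcd2. Ehhadh, the bifunctional hydratase and dehydrogenase of peroxisomal oxidation, had 7681 and 6763 in Fxr-/- GW4064 and 9219 in Fxr-/- vehicle, against 686 and 521 in Fxr+/+ GW4064 and 784 and 636 in Fxr+/+ vehicle livers. This was a 12.3-fold difference (log2 3.62, SE 0.175, limma adjusted p = 3.71e-05). Pex11a, which drives the division of peroxisomes, had 11157 and 12582 in Fxr-/- GW4064 and 14060 in Fxr-/- vehicle, against 4789 and 6914 in Fxr+/+ GW4064 and 6965 and 7490 in Fxr+/+ vehicle livers. Its groups did not overlap (log2 difference 1.00, SE 0.181, limma adjusted p = 0.00774). Abcd2, a transporter of fatty acids into peroxisomes, was dim, with 171 and 136 in Fxr-/- GW4064 and 175 in Fxr-/- vehicle, against 64.7 and 56.4 in Fxr+/+ GW4064 and 95.4 and 33.3 in Fxr+/+ vehicle livers. The log2 difference was 1.25 (SE 0.286, limma adjusted p = 0.0185), and the call was lost without Fxr+/+ GW4064 replicate 2 (0.0627).

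The other peroxisomal members did not pass in this comparison. The thiolases Acaa1b and Acaa1a were among the brightest probes of the set. Acaa1b had 34515 and 31320 in Fxr-/- GW4064 and 32797 in Fxr-/- vehicle, against 20936 and 20193 in Fxr+/+ GW4064 and 27881 and 30270 in Fxr+/+ vehicle livers. All Fxr-/- arrays were higher, with a log2 difference of 0.43 (SE 0.145, limma adjusted p = 0.0742). Acaa1a had 12582 and 11721 in Fxr-/- GW4064 and 12128 in Fxr-/- vehicle, against 8485 and 10610 in Fxr+/+ GW4064 and 11902 and 13576 in Fxr+/+ vehicle livers, which overlap (log2 difference 0.14, SE 0.161). Abcd3, another peroxisomal fatty acid transporter, had 11112 and 14694 in Fxr-/- GW4064 and 13954 in Fxr-/- vehicle, against 7853 and 9844 in Fxr+/+ GW4064 and 10163 and 13002 in Fxr+/+ vehicle livers. These overlap too (log2 difference 0.41, limma adjusted p = 0.163; 0.0321 with the replicate block). Hsd17b4, the other bifunctional enzyme, Decr2, the peroxisomal dienoyl-CoA reductase, and Scp2, a thiolase and lipid carrier, had log2 differences of 0.03, 0.21 and -0.26.

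Ketone body formation was represented by Bdh1, the mitochondrial enzyme that interconverts acetoacetate and beta-hydroxybutyrate, and it fell. Its signals were 510 and 221 in Fxr-/- GW4064 and 582 in Fxr-/- vehicle, against 3266 and 3586 in Fxr+/+ GW4064 and 3844 and 3246 in Fxr+/+ vehicle livers. Every Fxr-/- array was far below every Fxr+/+ array, by 7.60-fold (log2 difference -2.93, SE 0.278, limma adjusted p = 0.000473). The second probe of Bdh1 had a log2 difference of -2.22.

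**Figure D2:**
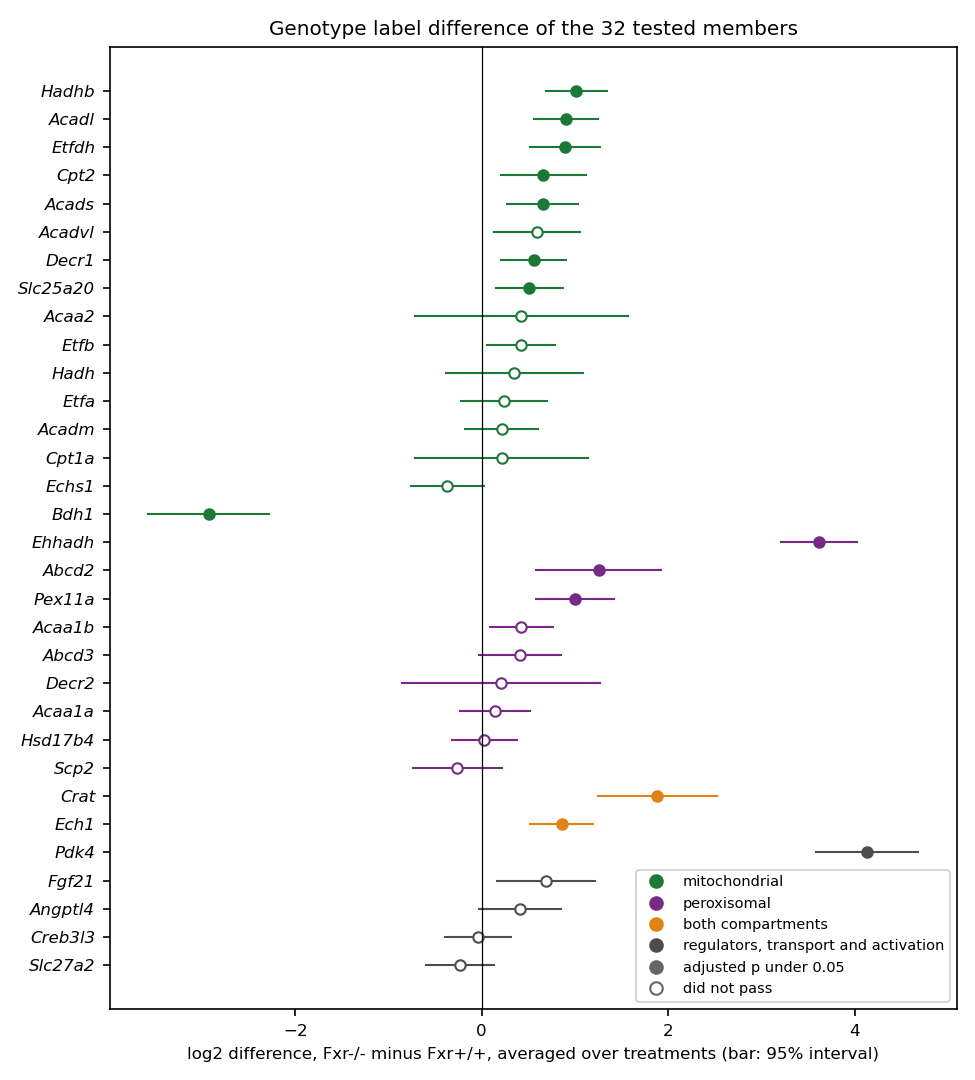
Log2 differences, Fxr-/- minus Fxr+/+ averaged over treatments, of the 32 tested members, grouped by compartment, with 95% intervals from the limma fit and filled points where the adjusted p is under 0.05. Pdk4 at 4.13 and Ehhadh at 3.62 stand farthest to the right, and Bdh1 at -2.93 stands alone on the far left.

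Within each treatment fewer members passed. Under GW4064, 10 of 32 tested members rose in Fxr-/- livers and 1 fell, against 5.47% and 9.14% of all genes tested. The median of the members on the array was 0.54, against 0.08 over all genes tested. The largest log2 differences were those of Pdk4 (3.96), Ehhadh (3.56), Bdh1 (-3.28) and Crat (2.03), with limma adjusted p between 0.000168 and 0.00881. The others were Hadhb (1.09, adjusted p = 0.00736), Pex11a (1.04, 0.0232), Acadl (1.03, 0.0108), Acads (0.90, 0.0262), Ech1 (0.87, 0.02), Etfdh (0.79, 0.0409) and Acaa1b (0.68, 0.0481). Ehhadh, Pdk4 and Bdh1 were called whichever array was left out, but Bdh1 was lost with no filter on low signals (0.0729). The rest rested on single arrays: without Fxr+/+ GW4064 replicate 1, Crat (0.0608), Hadhb (0.0563), Pex11a (0.15), Acadl (0.0698), Acads (0.166), Ech1 (0.125), Etfdh (0.122) and Acaa1b (0.185) were lost. Without Fxr+/+ GW4064 replicate 2, Hadhb (0.0619), Acadl (0.0838), Acads (0.0896), Ech1 (0.109), Etfdh (0.236) and Acaa1b (0.229) were lost. Without Fxr-/- GW4064 replicate 1, Pex11a (0.0551), Ech1 (0.0586), Etfdh (0.133) and Acaa1b (0.132) were lost, and without replicate 2, Pex11a (0.112), Acadl (0.0578), Acads (0.123), Ech1 (0.0806), Etfdh (0.0795) and Acaa1b (0.11). Etfdh and Acaa1b were also lost without Fxr+/+ vehicle replicate 1 (0.0503 and 0.0633), and Acaa1b without Fxr+/+ vehicle replicate 2 (0.0626). With the replicate block Cpt2 (0.0225), Acadvl (0.0415) and Abcd2 (0.0307) passed as well, making 14 members.

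Under vehicle, where the Fxr-/- side was 1 array, 3 members rose and 1 fell, against 1.85% and 5.0% of all genes tested. They were Pdk4 (log2 difference 4.31, SE 0.365, limma adjusted p = 0.00109), Ehhadh (3.68, SE 0.271, 0.000918), Hadhb (0.94, SE 0.218, 0.0454) and Bdh1 (-2.57, SE 0.431, 0.0142). Hadhb lost its call whichever of the 6 other arrays was left out (0.0558 to 0.113), and Bdh1 without Fxr+/+ vehicle replicate 1 (0.0515) or with no filter (0.142). With the replicate block 8 members passed, the added ones being Crat (0.00694), Pex11a (0.0382), Ech1 (0.0478) and Etfdh (0.0468). Crat without the block had a log2 difference of 1.73 (adjusted p = 0.0546). The median of the members on the array was 0.41, against 0.03 over all genes tested. The comparisons under each treatment and their average share arrays.

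The second question was whether mitochondrial and peroxisomal genes differed. Between the genotype labels their medians were close. Averaged over treatments, the median log2 difference was 0.42 for the 10 peroxisomal and 0.47 for the 16 mitochondrial members on the array, of which 3 and 7 rose, and 0 and 1 fell. Peroxisomal minus mitochondrial, the medians differed by -0.05 averaged over treatments, by 0.12 under GW4064 and by -0.03 under vehicle. Taken on single arrays as the difference of the class medians shown by array, the gap had a pooled SD of 0.0615 between replicates, but that is another quantity than the medians of differences given here. No gap was tested, since genes of a class are not replicates, and its sign depended on the summary. With means in place of medians, the peroxisomal class was above the mitochondrial one by 0.51, 0.52 and 0.49, and without Ehhadh and Bdh1, a choice made after their values were seen, the medians differed by 0.0378 under GW4064 and by -0.15 under vehicle. Within each class the spread was far wider than the gap between them. The peroxisomal values ran from -0.26 to 3.62 and the mitochondrial values from -2.93 to 1.02.

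**Figure D3:**
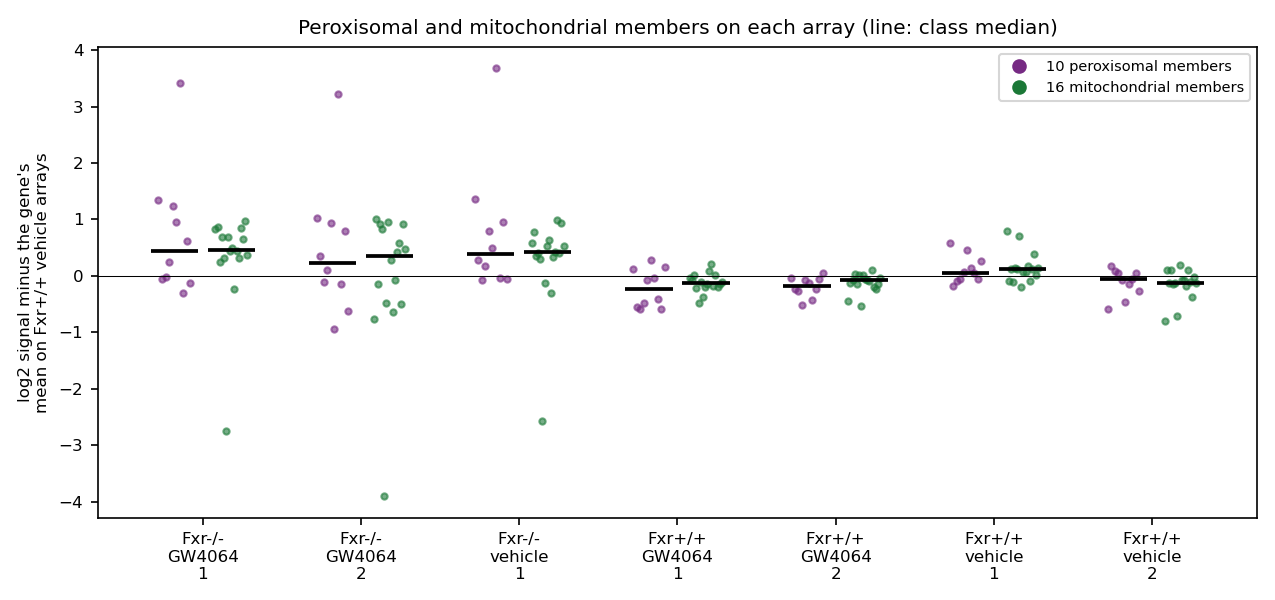
Log2 deviation of the 10 peroxisomal and 16 mitochondrial members on each array from their mean on the Fxr+/+ vehicle arrays, with 1 point per gene and a line at the class median. Both medians lie between 0.23 and 0.47 on the 3 Fxr-/- arrays, and between -0.24 and 0.12 on the 4 Fxr+/+ arrays.

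The third question was how livers of GW4064-treated mice compared with those given vehicle. No member passed for GW4064 against vehicle in Fxr-/- livers, in Fxr+/+ livers or averaged over the labels (limma), where 0.0717%, 0.0205% and 0.0922% of all genes tested passed in either direction. At an unadjusted p under 0.05 there were 0, 2 and 1 of 32 members, against 9.78%, 5.06% and 9.58% of all genes tested. No member passed in any of the other fits run either, which included a fit with an intensity trend and a replicate block. In Fxr+/+ livers 26 of 35 members had a value below 0 and 7 above, with a median log2 difference of -0.09, against -0.01 over all genes tested, where 5008 of 9766 were below 0. The peroxisomal median was -0.28 and the mitochondrial median -0.09, a gap of -0.19. In Fxr-/- livers these medians were -0.18 and -0.12, and averaged over the labels -0.23 and -0.08.

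Of the 9 members whose arrays did not overlap in Fxr+/+ livers, 5 were peroxisomal, 3 were regulators or transport genes and 1 was mitochondrial. The 4 with the largest differences were Slc27a2, Acaa1b, Acaa1a and Abcd3. Slc27a2 had 9681 on both Fxr+/+ GW4064 arrays, against 15337 and 12317 in Fxr+/+ vehicle livers. Its log2 difference was -0.50 (95% interval -0.97 to -0.04, limma adjusted p = 0.968). That of Acaa1b, whose signals are given above, was also -0.50 (-0.93 to -0.07, adjusted p = 0.968). Both had an unadjusted p under 0.05, at 0.0362 and 0.028. Those of Acaa1a and Abcd3 were -0.42 and -0.39, with intervals that held 0. All GW4064 arrays lay below both vehicle arrays for these 9 of 35 members and above them for 0, against 17.3% and 16.1% of all genes on the array.

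In Fxr-/- livers the vehicle side was 1 array, and the largest separated values were mixed. Slc27a2 had 8950 and 8054 in Fxr-/- GW4064, against 11401 in Fxr-/- vehicle livers (log2 difference -0.42, limma adjusted p = 0.673). The values of Bdh1, Fgf21 and Acads were -0.76, 0.45 and 0.40 (adjusted p between 0.666 and 0.777). The treatment differences of Ehhadh and Pdk4 were small beside those between the genotype labels. The GW4064 difference of Ehhadh was -0.35 in Fxr-/- and -0.23 in Fxr+/+ livers, and that of Pdk4 -0.15 and 0.20, with 95% intervals that all held 0. For Ehhadh they ran from -0.99 to 0.28 in Fxr-/- and from -0.75 to 0.28 in Fxr+/+ livers. Changes within these bounds are not excluded by the data, and the bounds are not a limit of detection.

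**Figure D4:**
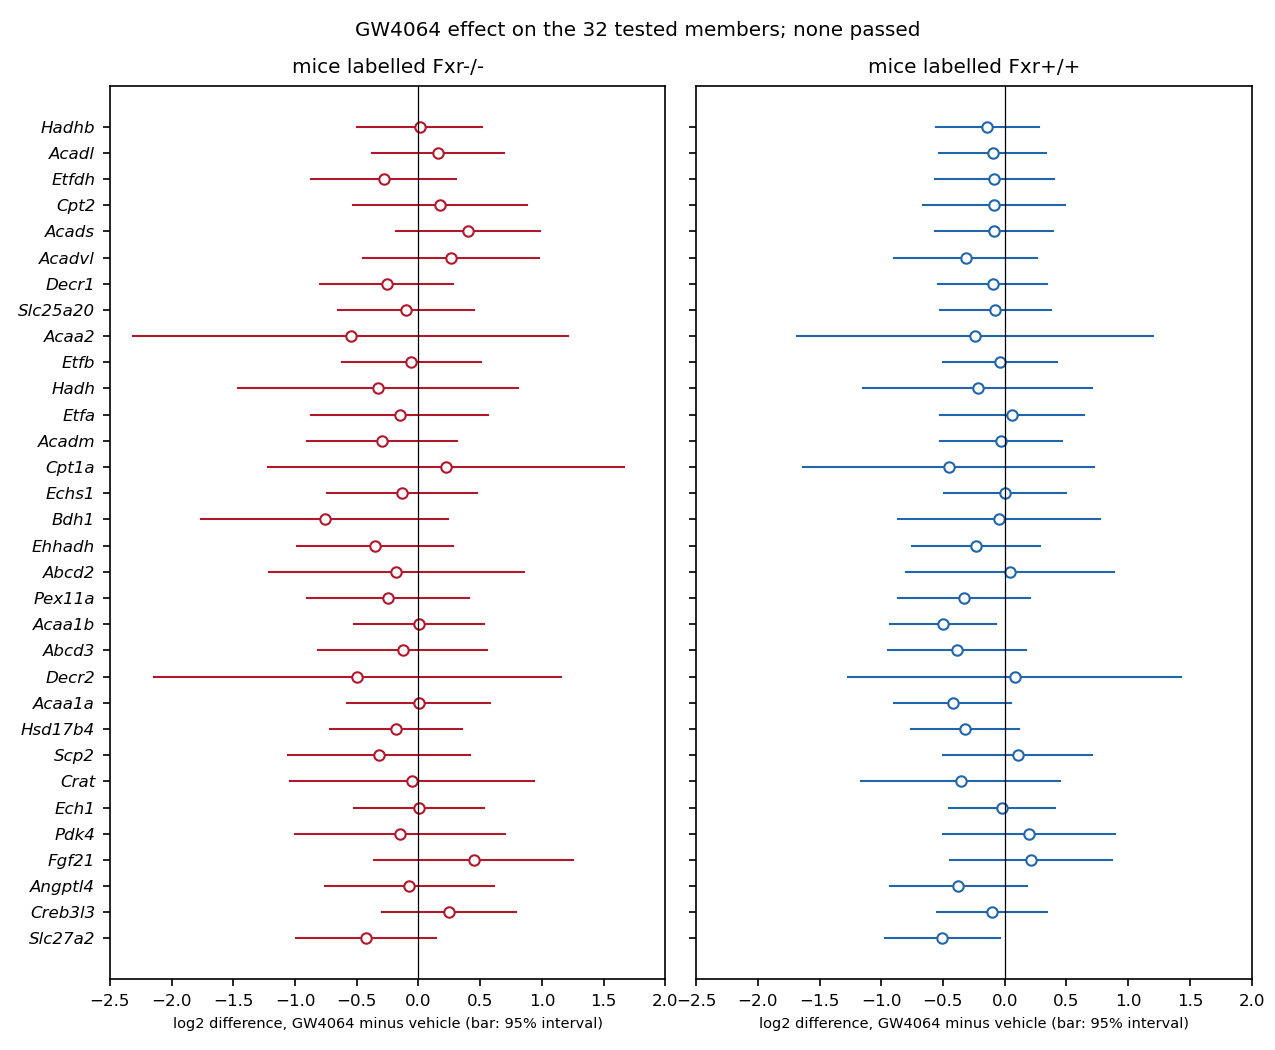
Log2 differences between GW4064 and vehicle for each tested member in Fxr-/- and in Fxr+/+ livers, with 95% intervals from the limma fit. No point is filled, since no adjusted p was under 0.05, and the Fxr+/+ values run from -0.50 to 0.21.

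The test of the difference between the GW4064 effects of the labels, Fxr-/- minus Fxr+/+, called 0 members and 0 of all genes tested (0.0%). At an unadjusted p under 0.05 it held 0 members and 604 genes, or 6.18%. Leaving aside Cpt1a, whose probe was within the background range, the values of tested members ran from -0.72 for Bdh1 to 0.58 for Acadvl, and the lowest adjusted p of a member was 0.897, that of Acaa1b. Acaa1b had an interaction of 0.50 with a 95% interval from -0.17 to 1.18, since it had -0.50 in Fxr+/+ and 0.00 in Fxr-/- livers. The median was 0.11 for the peroxisomal and -0.07 for the mitochondrial members.

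Some members that did not pass had replicate arrays far apart, in the same direction in each replicated group. The main probe of Acaa2, the mitochondrial thiolase, had 9911 and 3263 in Fxr-/- GW4064 and 8326 in Fxr-/- vehicle, against 5437 and 4072 in Fxr+/+ GW4064 and 9699 and 3190 in Fxr+/+ vehicle livers. Replicate 1 was above replicate 2 by 1.60, 0.42 and 1.60 on the log2 scale in the 3 replicated groups. Another Acaa2 probe, singled out after its values were seen, had -0.20, -0.16 and 0.10. That probe read 5921, 6801 and 6146 on the Fxr-/- arrays (GW4064, GW4064, vehicle), against 3867 and 4332 in Fxr+/+ GW4064 and 5030 and 4682 in Fxr+/+ vehicle livers, without overlap (log2 difference 0.49, not tested). For Decr2 both probes had replicate 1 above replicate 2, the main one by 1.89, 0.40 and 0.92. Acadl, called above, showed it in its second probe (1.76, 0.57 and 1.23) and not in its main one (-0.13, 0.04 and -0.19). Every kept probe of the 14 called members had the sign of its main probe in the averaged genotype comparison.

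**Figure D5:**
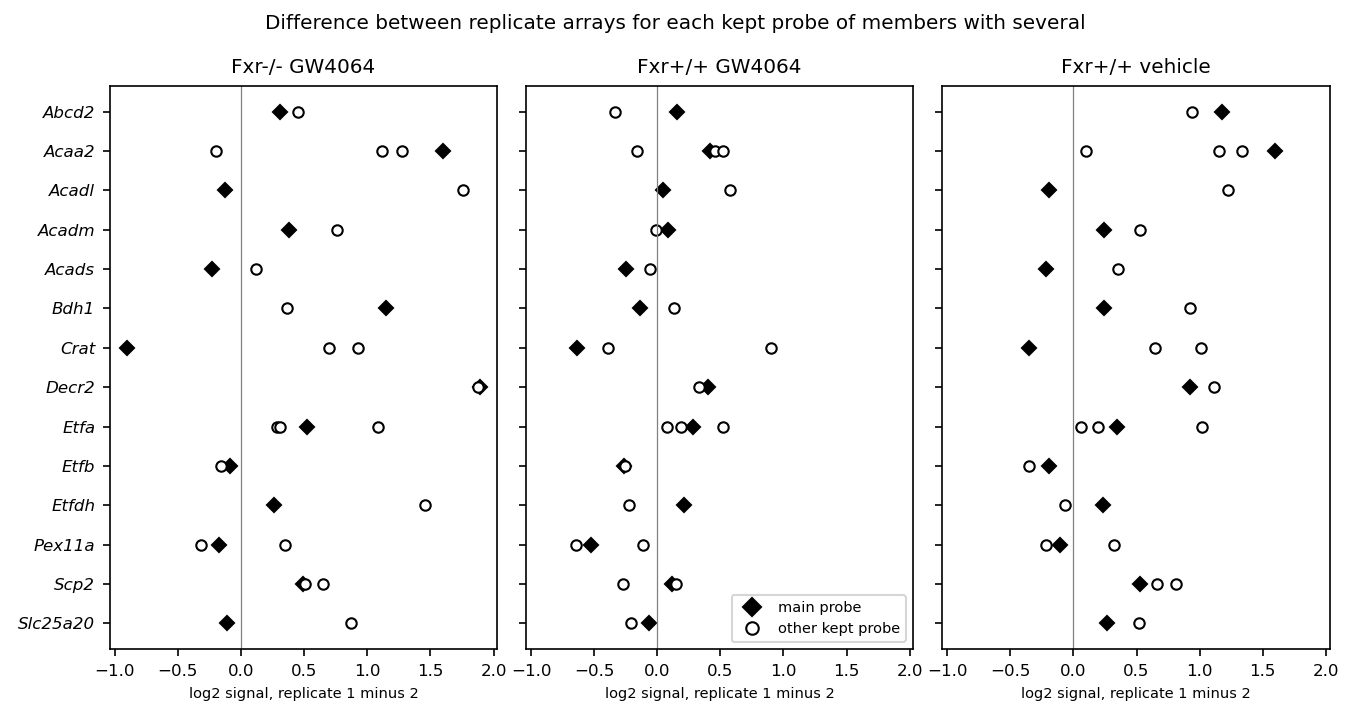
Replicate 1 minus replicate 2, log2 signal, for every kept probe of the members with several probes, in Fxr-/- GW4064, Fxr+/+ GW4064 and Fxr+/+ vehicle livers. Diamonds are main probes and circles the others. Decr2 and most Acaa2 probes lie to the right of 0 in all 3 groups, while the main probes of Acads, Crat and Pex11a lie to the left.

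Other genes of the same pathways were read from lists that do not hold members. Of 21 tested genes of mitochondrial oxidation and carnitine, 7 rose and 4 fell in Fxr-/- livers averaged over treatments, where 9.73% of all genes tested rose and 12.6% fell. Cpt1b, the muscle-type counterpart of Cpt1a, had 1081 and 1728 in Fxr-/- GW4064 and 1026 in Fxr-/- vehicle, against 137 and 200 in Fxr+/+ GW4064 and 148 and 168 in Fxr+/+ vehicle livers. It was higher on every Fxr-/- array (log2 difference 2.76, SE 0.222, limma adjusted p = 0.000228). Eci2, an enoyl-CoA isomerase, rose by 1.00, Pcca, a subunit of propionyl-CoA carboxylase, by 1.03 and Slc22a5, the carnitine importer, by 1.17 on the log2 scale (adjusted p = 0.00274, 0.00348 and 0.00429). The list's median was 0.11 over the 23 genes on the array. None of the genes on these lists passed for GW4064 against vehicle in either genotype label.

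Of 4 tested genes of ketone body metabolism outside the members, 0 rose and 1 fell, with a median of -0.09 over the 6 on the array. The gene that fell was Bdh2, named as a cytosolic beta-hydroxybutyrate dehydrogenase, whose signals were 127 and 100 in Fxr-/- GW4064 and 103 in Fxr-/- vehicle, against 1417 and 1279 in Fxr+/+ GW4064 and 1195 and 1728 in Fxr+/+ vehicle livers. Its groups were far apart (log2 difference -3.51, SE 0.189, limma adjusted p = 4.46e-05). Of 24 tested genes of peroxisomal oxidation and biogenesis, 3 rose and 3 fell, with a median of 0.14 over 27. These shares were near those of all genes tested, 9.73% and 12.6%. Among them Amacr, a racemase for branched chains, rose by 0.70, and Acox2, the branched-chain oxidase, fell by 0.75 on the log2 scale (adjusted p = 0.0227 and 0.0138). Pecr, an enoyl-CoA reductase, and Abcd4, a transporter of the same family as Abcd2, fell by 0.64 and 0.71 (adjusted p = 0.0213 and 0.0355).

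Of 22 tested regulators and other targets on the PPAR-alpha axis, 4 rose and 6 fell, with a median of -0.06 over 27, against 9.73% and 12.6% of all genes tested. The 6 that fell include Nr1h4, the targeted gene itself (log2 difference -0.58, limma adjusted p = 0.0286), so they are not all results of that axis. Slc27a1 and Acsl4, a fatty acid transporter and an acyl-CoA synthetase, rose by 2.99 and 2.16, and Slc27a5, the liver's bile acid-CoA and very-long-chain acyl-CoA ligase, fell by 3.32 (adjusted p = 7.5e-05, 0.000249 and 0.000468). Cidec, a lipid droplet protein, was within the background range on every Fxr-/- array (-9.2 and -4.5 under GW4064 and -2.4 under vehicle), against 362 and 373 in Fxr+/+ GW4064 and 539 and 362 in Fxr+/+ vehicle livers. Ppara itself was dim, with 114 and 26.8 in Fxr-/- GW4064 and 95.1 in Fxr-/- vehicle, against 192 and 88.9 in Fxr+/+ GW4064 and 177 and 105 in Fxr+/+ vehicle livers. Those values overlap (log2 difference -0.72, SE 0.430, limma adjusted p = 0.267).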

How the data were processed

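Liver RNA was labelled as biotin cRNA and hybridised to single-colour Illumina bead arrays, per the labels' protocols. The deposited value table holds linear intensity values, 1 column per array, with 31.5 to 31.6% of values below 0 on the arrays used. Sorted columns differ by at most 0.5, the pattern that quantile normalization leaves; background treatment, scale factors and bead numbers are not given in the sources used here. The deposited column for Fxr-/- vehicle replicate 2, of another unit, holds whole numbers with a median of 39 and a Spearman correlation of at most 0.0559 with the other arrays, and was left out.

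Probes were named from GEO's platform annotation. A single gene symbol was given for 23978 of 25697 probes and several for 0, while 1719 were unnamed. Symbols were checked by Entrez ID, which found no match for 16 probes. Values were set to log2(intensity + 16) after negative values were set to 0. Probes above the array median on at least 2 arrays were kept (14041), and the brightest probe by mean signal stood for its gene. limma 3.58.1 fitted group means over the 7 arrays and 9766 genes, with Benjamini-Hochberg adjustment over all of them, 2-sided, at a threshold of 0.05. Residual degrees of freedom were 3, with 4.55 prior degrees of freedom. No depth applies to arrays; their number limits the precision. Scripts were tested on simulated data.

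The sample titles number the replicates but name no pairing or batch. Deviations of same-numbered arrays correlated over 9766 genes at 0.233 (Fxr-/- GW4064 with Fxr+/+ GW4064), 0.375 (Fxr-/- GW4064 with Fxr+/+ vehicle) and 0.242 (Fxr+/+ GW4064 with Fxr+/+ vehicle). What these correlations come from was not tested. The main fit left the replicate number out, and the replicate block was run as an alternative. Spearman correlations between arrays were 0.935 to 0.969.

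The members and gene lists were chosen with earlier results of these data known. Every member was accounted for, and genes outside the set were named as at most 4 per list with the smallest p among those that passed. Alternatives were the offset, normalization, filter, probe summary, variance trend, replicate block and leaving out arrays.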

Additional observations from a re-analysis of the deposited data

How the results depend on the processing

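With 1 to 2 pools per group, counts of members that passed moved with the settings. No member that passed changed direction, while the gap between peroxisomal and mitochondrial medians changed sign under vehicle, averaged over treatments and for GW4064 in Fxr-/- livers. Averaged over treatments, 9 to 13 members passed when 1 array was left out, against 14 with all. In that comparison 10 passed with an offset of 1, 10 with no filter and 12 with the mean of probes. The strict filter gave 16, the replicate block 17, and an offset of 100 or a variance trend 18. Abcd2, Acads, Cpt2, Crat, Pex11a and Slc25a20 were lost with no filter, and Etfdh and Slc25a20 with the mean of probes. Under GW4064, 4 to 11 passed when 1 array was left out, 7 with an offset of 1 and 5 with no filter, against 11. Under vehicle, 9 passed with an offset of 100, 7 with the strict filter, 8 with a variance trend and 8 with the replicate block, against 4. The replicate block lost no member call and changed no call beyond those named in the report. For GW4064 against vehicle and for the interaction, 0 members passed in every fit run.

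The peroxisomal minus mitochondrial gap depended on how the classes were summarised. Under vehicle (-0.03) it was 0.0766 with both-compartment genes as peroxisomal, 0.49 with means, -0.19 with an offset of 100, -0.25 with the mean of probes, -0.14 over genes that passed the filter, -0.15 with the strict filter, and -0.0319 to 0.0366 when 1 array was left out. Under GW4064 (0.12) these were 0.19 with both-compartment genes, 0.52 with means, 0.0178 with an offset of 100, 0.0531 with the mean of probes, 0.0486 over genes that passed, and 0.0649 to 0.26. Averaged (-0.05) they were 0.51 with means, -0.12 with an offset of 1, -0.15 with an offset of 100, -0.12 with the mean of probes, and -0.16 to 0.0502. For GW4064 against vehicle the gap was -0.0729 to 0.21 in Fxr-/- livers when 1 array was left out. In Fxr+/+ livers it was -0.0801 with means and -0.23 to -0.0908, and averaged -0.0672 with means and -0.18 to -0.0544. For the interaction (0.18) it was 0.0258 with means, 0.0702 with the mean of probes, and 0.003 to 0.34. Chosen after seeing the data, it was -0.15 under vehicle without members within the background range, and without Ehhadh and Bdh1 -0.15 under vehicle and 0.0378 under GW4064. The cause was not tested.

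Over all genes tested, 2178 passed averaged over treatments and 1273 to 1996 when 1 array was left out, 1427 under GW4064 (925 with an offset of 1, 383 with no filter) and 669 under vehicle (397 from only the arrays compared). For GW4064 against vehicle 7 genes passed in Fxr-/- livers, 55 with an offset of 1, 361 with no filter and 14 with a trend, and 2 in Fxr+/+ livers, 5 with no filter and 6 with a trend. Averaged, 9 passed, 23 with an offset of 1, 29 with an offset of 100, 346 with no filter and 42 with a trend, and for the interaction 0, 12 with an offset of 1 and 303 with no filter.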
